A study of Mus musculus with 8 samples.

Results

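LIN28A bound to coding sequence was set against the ribosomes on the same mRNAs, transcript by transcript, in mouse embryonic stem cells. Of 7820 transcripts in the LIN28A CLIP table and 7936 in the ribosome footprint table, 7181 were in both by RefSeq accession, and 6921 of these had at least 50 siLuc footprint counts and were tested. The other 260 fell below that minimum. Each library was scaled to its total over the 7181 shared transcripts. The log2 ratio of a transcript is its share of coding CLIP counts over its share of siLuc footprints, with 0.5 counts added to each, and is given as the mean ± SD over 3 antibodies (n = 3 libraries). A positive value means more LIN28A than the footprint load of that transcript, relative to the totals.

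LIN28A, a protein of pluripotent and early embryonic cells, binds RNA with a cold shock domain and a pair of CCHC zinc knuckles. It is best known for binding let-7 precursors, which blocks their processing and marks them for uridylation and decay. It also binds many mRNAs, in coding sequence as well as in 3′ UTRs, and is found with ribosomes and at the rough endoplasmic reticulum (ER). In CLIP, UV light crosslinks a protein to the RNA it touches, and the RNA that comes down with an antibody is sequenced. In ribosome profiling, the fragments that ribosomes shield from nuclease are sequenced, so their number on an mRNA reflects both how much of the mRNA there is and how many ribosomes it carries.

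All libraries came from A3-1, a mouse embryonic stem cell line, cultured with serum and LIF, the cytokine that holds such cells in self-renewal. LIN28A was immunoprecipitated from crosslinked cells with the monoclonal antibodies 35L33G and 2J3 and with a polyclonal antibody, 1 library each, and no siRNA is listed for these 3 libraries. The footprints came from cells harvested 48 h after siRNA against luciferase (siLuc), 1 library, so CLIP and footprints differ in siRNA treatment as well as in assay. Footprints 48 h after siRNA against Lin28a (siLin28a) and poly(A) RNA of siLin28a, siLuc and untreated cells, 1 library each, are used below as further measures. The labels name no passage, clone or separate culture. The siRNA strands, 5′ to 3′ without their dTdT overhangs, define the cells in which footprints were read:
siLin28a, strand 1: auguucuucccuuuuggcc
siLin28a, strand 2: ggccaaaagggaagaacau
siLuc, strand 1: ucgaaguacucagcguaag
siLuc, strand 2: cuuacgcugaguacuucga

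Coding CLIP counts over the shared transcripts were 5064302 with 35L33G, 5150808 with 2J3 and 5255709 with the polyclonal antibody, against 6977746 siLuc footprints. All 10 embryonic stem cell markers were detected in poly(A) RNA, with a summed level of 5406 CPM (counts scaled to a common library total) in untreated cells and 5491.5 in siLuc cells. Markers of fibroblasts or feeders, mostly Vim, summed to 179.75 CPM in untreated cells and 286.69 in siLuc cells, the source of the footprints, and their part in the ratios was not tested. In untreated and siLuc cells, those of neuroectoderm summed to 110.73 and 110.78, of mesoderm to 6.37 and 9.5 and of endoderm to 3.35 and 3.08 CPM. Reads were not tallied alike in all tables. The footprint table also lists siLuc poly(A) counts, which can be set against the siLuc counts of the poly(A) table. The median ratio, footprint table over poly(A) table, was 0.789, and 333 of the 6921 transcripts stood over 2-fold above it. These 333 transcripts, called tallied higher below, held 23.7% of siLuc footprints but 3.68% to 3.86% of coding CLIP counts. Of siLuc poly(A) counts they held 19.7% in the footprint table and 3.56% in the poly(A) table. Counts over gene lists that hold any of them are therefore given with and without them. Another 396 stood over 2-fold below that median and 6192 within 2-fold. Which stretch of a transcript the footprints were counted over is not given in the sources used here. Among transcripts not tallied higher, grouped by the coding share of their length, the median tally ratio rose from 49.2% at a median coding share of 27.9% to 94.2% at 86.7%. What this says about the stretch counted was not tested.

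LIN28A and ribosomes were shared out unequally between mRNAs. With edgeR's quasi-likelihood test, Benjamini-Hochberg adjusted over the 6921 transcripts, 2318 (33.5%) carried more LIN28A than footprints and 2275 (32.9%) carried less at an adjusted p under 0.05, or 2303 (35.0%) and 1992 (30.2%) of the 6588 not tallied higher. By at least 2-fold as well, 1695 (24.5%) were higher and 1683 (24.3%) lower, and "2-fold higher" and "2-fold lower" below mean calls that pass both. Without the transcripts tallied higher, 1686 of 6588 (25.6%) were 2-fold higher and 1428 (21.7%) 2-fold lower. With the library totals also taken over the remaining transcripts, all log2 ratios shifted by −0.34, and 1251 were 2-fold higher and 1974 2-fold lower. Levels of single mRNAs and of gene lists are therefore read below against the median of all transcripts, −0.06 (quartiles −1.05 and 0.98), which moves with the scaling. The 3 antibodies gave the same sign for 6208 transcripts (89.7%). Their SD had a median of 0.18, and it was 0.68 for the 249 transcripts with under 30 coding CLIP counts and 0.12 for the 3256 with 300 or more. The spread in the test comes from the 3 antibodies alone and the single footprint library is assumed to vary like them. Nothing in the labels says that the 3 CLIP libraries were separate cultures, and p-values cover no more than how these libraries differ, possibly for technical reasons. In bulk samples, fewer cells that express an mRNA and less of it per cell cannot be told apart.

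**Figure D1:**
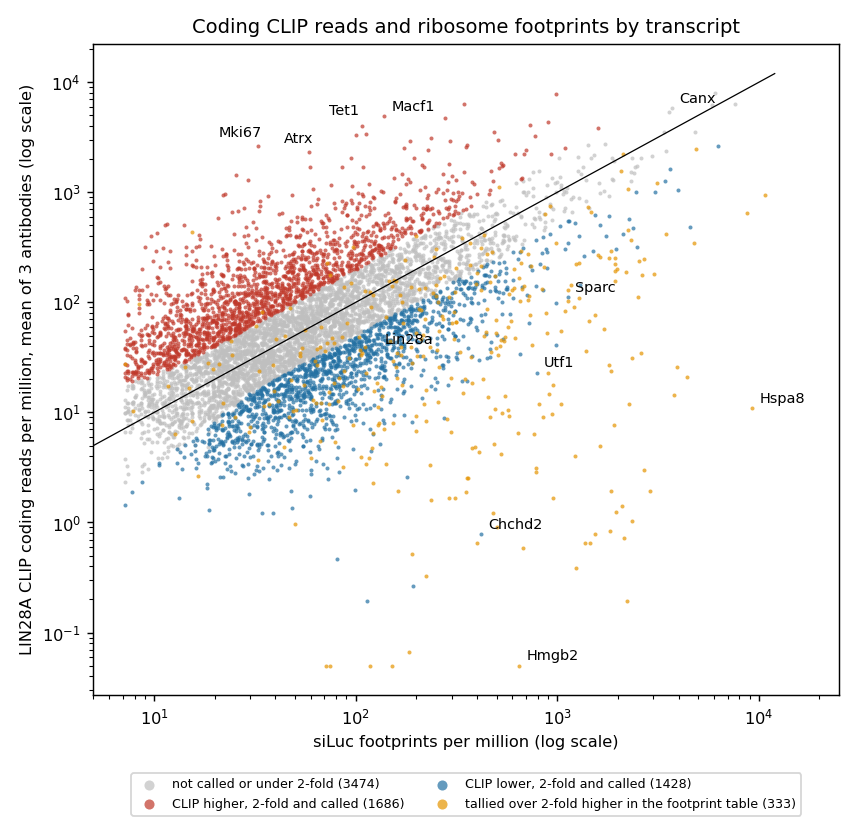
Coding CLIP counts as CPM, the mean of 3 antibodies (y axis, log scale, values under 0.05 drawn at 0.05), against siLuc footprints as CPM (x axis, log scale) for 6921 transcripts, with totals over the shared transcripts. The line marks equal shares. The 1686 transcripts called 2-fold higher lie above it, the 1428 called 2-fold lower below it, and most of the 333 tallied higher in the footprint table lie below it.

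The footprint minimum cuts on the denominator, which bears on the high end. The 75 members with 50 to 55 footprints had a median log2 ratio of 1.30, the 55 transcripts with 45 to 49 a median of 1.86, and all transcripts under the minimum a median of 2.36. With at least 200 footprints required, 914 of 4922 transcripts, those tallied higher included, were 2-fold higher and 1516 2-fold lower.

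The mRNAs that carried the most LIN28A for their footprints had long coding sequences. Mki67 (NM_001081117; mm9 chromosome 7, 142881471 to 142908062), which encodes the Ki-67 protein that coats mitotic chromosomes, stood first among mRNAs with at least 200 footprints. It had 13422, 13408 and 14251 coding CLIP counts with 35L33G, 2J3 and the polyclonal antibody, against 229 siLuc footprints. Its log2 ratio was 6.33 ± 0.03 (edgeR adjusted p = 1.6e-18). Tet1 (NM_027384; mm9 chromosome 10, 62267318 to 62342762), the dioxygenase that oxidises 5-methylcytosine, had 20177, 20900 and 20946 coding CLIP counts against 746 footprints, a log2 ratio of 5.23 ± 0.02. Atrx (NM_009530; mm9 chromosome X, 102992956 to 103124711), a chromatin remodeler of heterochromatin, had 11239, 12416 and 12364 against 409, a log2 ratio of 5.31 ± 0.06. All 3 antibodies placed these 3 mRNAs more than 5 log2 units above their footprint share.

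The other 9 of the 12 highest are named with their log2 ratios. They were Med13 of the Mediator kinase module (5.46 ± 0.07), the microtubule and actin crosslinker Macf1 (5.14 ± 0.02), the spectrin gene Spnb2 (5.06 ± 0.02) and the nucleoporin gene Ranbp2 (4.91 ± 0.03). They also included the P-type ATPase gene Atp13a3 (4.83 ± 0.06), the ribosomal subunit joining factor Eif5b (4.66 ± 0.03) and Pbrm1 of a SWI/SNF remodeler (4.63 ± 0.07). The last were Apc, a scaffold of beta-catenin destruction (4.47 ± 0.03), and the deubiquitinase gene Usp34 (4.44 ± 0.01). Their SD over antibodies was at most 0.07, far below the ratios themselves. Each of the 12 had between 204 and 970 siLuc footprints, and their coding sequences ran from 3651 nt in Eif5b to 22068 nt in Macf1. Macf1 had the most counts of the 12, with 24627, 25075 and 26210 coding CLIP counts against 970 footprints.

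At the low end the named mRNAs had many footprints, and most were tallied higher in the footprint table. The 12 lowest by the same rule were Hmgb2, H2afz, Ptma, Pgam1, Tpt1, Hnrnpa3, Map1lc3b, Ube2n, Sms, Ube2l3, Ptges3 and Hspa8, and all but Ube2l3 were tallied higher. Hspa8, the constitutive cytosolic HSP70, had 66, 56 and 47 coding CLIP counts against 64925 footprints, a log2 ratio of −9.73 ± 0.27. Its siLuc poly(A) tally in the footprint table was 152 times that in the poly(A) table. Hmgb2, a DNA-bending chromatin protein, had 0 coding CLIP counts with each antibody against 4518 footprints, which is at least 1090-fold lower when 3 CLIP counts per library are taken as the limit. Map1lc3b, Sms, Amd1 and Ube2d2 also had 0 coding CLIP counts in all 3 libraries, and all 5 were tallied higher. Of the 333 transcripts tallied higher, 255 were 2-fold lower and 9 2-fold higher, with a median log2 ratio of −2.67. How far the tally bears on these low values was not tested. Values of transcripts tallied higher that are named for the lists below carry the same limit.

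Among mRNAs not tallied higher, a list added after the values were seen, the 12 lowest ratios belonged to mRNAs with coding sequences under the median of 1554 nt. Chchd2, of a mitochondrial intermembrane space protein, had 9, 3 and 0 coding CLIP counts against 2929 footprints, a log2 ratio of −9.73 ± 2.19. Ube2l3, of a ubiquitin-conjugating enzyme, had 4, 0 and 0 against 1340, and Cox7a2l, of a respiratory supercomplex factor, 0, 1 and 2 against 790. For these 3 the antibodies differed by SDs of 1.16 to 2.19. With CLIP counts over all exons the fitted value of Chchd2 was −0.04, and its tally ratio of 0.14 put it among the transcripts tallied over 2-fold lower. Utf1 (NM_009482; mm9 chromosome 7, 147129755 to 147131011), a chromatin factor of pluripotent cells, rested on more reads. It had 149, 124 and 81 coding CLIP counts against 5512 footprints, a log2 ratio of −5.15 ± 0.48 (edgeR adjusted p = 6.7e-14). Id3, an inhibitor of helix-loop-helix transcription factors, had 7, 24 and 7 against 509 (−5.08 ± 0.99), and Mrpl34 of the mitochondrial ribosome 18, 5 and 7 against 689 (−5.80 ± 0.93). The rest of these 12 were Zfp706, Csnk2a1, Carhsp1, Ccrn4l, Golga7 and Ets2, between −8.40 and −5.03. These ratios count coding reads only. Of coding and 3′ UTR CLIP counts together, the 3′ UTR held 99.9% for Chchd2, 99.4% for Ube2l3 and Cox7a2l and 99.5% for Zfp706. It held 99.2% for Csnk2a1, 95.3% for Carhsp1, 94.0% for Golga7, 91.2% for Ccrn4l and 87.0% for Ets2. For Mrpl34, Id3 and Utf1 it held 83.1%, 65.5% and 26.6%, against a median of 28.1% over transcripts not tallied higher.

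**Figure D2:**
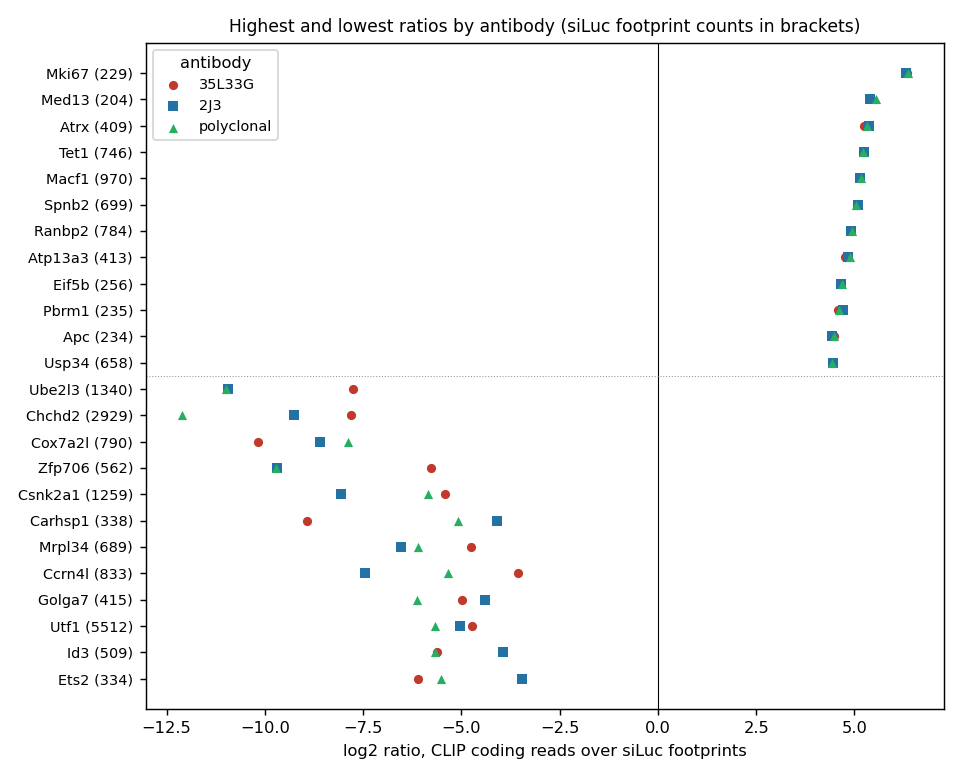
Log2 ratio of coding CLIP counts over siLuc footprints (x axis) by antibody for the 12 highest mRNAs and the 12 lowest that were not tallied higher, with siLuc footprint counts in brackets. The antibodies lie within SDs of 0.07 for the highest, from Mki67 at 6.33 to Usp34 at 4.44, and spread by up to an SD of 2.56 for the lowest.

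The ratio followed the length of the coding sequence. Among the 6588 transcripts not tallied higher, split into 10 classes of coding length, the median log2 ratio was −1.11 in the shortest class (114 to 606 nt) and 1.42 in the longest (3930 nt and more). It was higher in each class than in the one before. In the longest class 62.5% were 2-fold higher and 4.25% 2-fold lower, and in the shortest 5.14% and 51.8%. Across transcripts the rank correlation of the ratio with coding length was 0.47, and it was 0.473, 0.467 and 0.458 for 35L33G, 2J3 and the polyclonal antibody, which share the footprint library. With siLin28a footprints in place of siLuc footprints it was 0.476. To show what length leaves, the median of its length class was subtracted from each ratio, a step added after the values were seen. Mki67 then still stood first (4.91). Rab10, a small GTPase of secretory traffic with only 603 nt of coding sequence, came second at 4.13. It had 1394, 1522 and 1438 coding CLIP counts against 242 footprints, a log2 ratio of 3.02 ± 0.06 before that step. Fth1, the ferritin heavy chain, whose mRNA is a textbook case of translational repression by iron regulatory proteins, had 4968, 5638 and 5107 against 952 (2.89 ± 0.10; 4.01 after it).

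**Figure D3:**
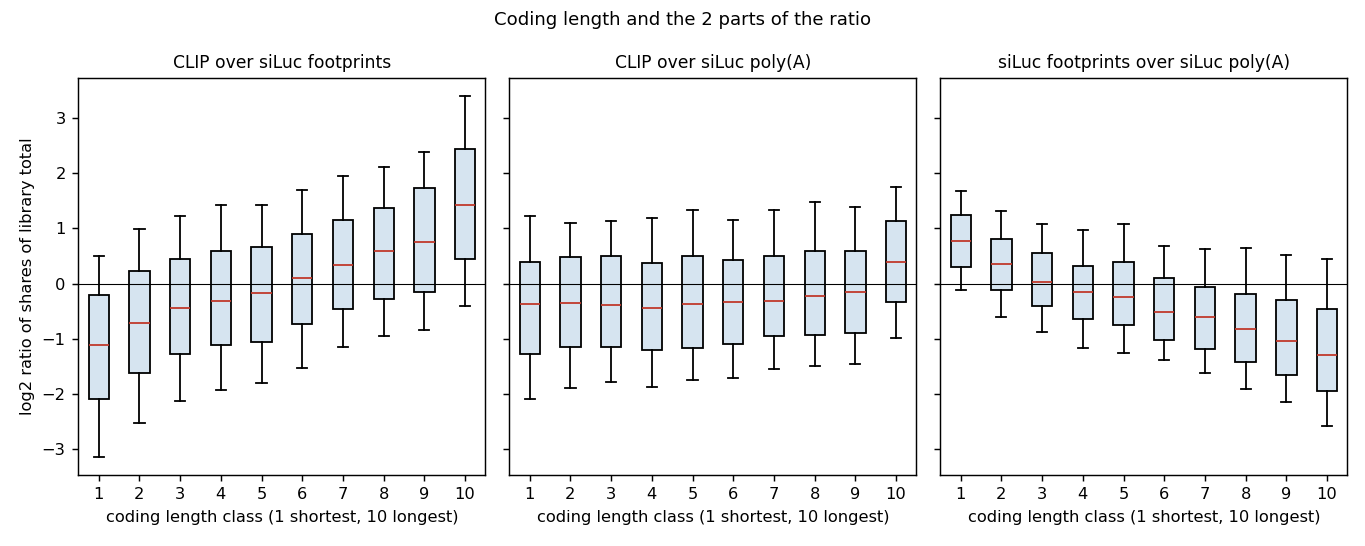
Box plots over 10 classes of coding length (x axis, shortest to longest) for 6588 transcripts not tallied higher. The y axes are log2 ratios of shares: CLIP over siLuc footprints, CLIP over siLuc poly(A), and siLuc footprints over siLuc poly(A). Boxes are quartiles with the median, whiskers the 10th and 90th percentiles. The median CLIP over footprint ratio goes up with length from −1.11 to 1.42, and footprints per poly(A) go down from 0.77 to −1.30.

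Both sides of the ratio can be set against mRNA abundance, here the siLuc poly(A) counts of the footprint table, as log2 ratios of shares. CLIP per poly(A) differed little with coding length: its class medians lay between −0.45 and −0.15 in the first 9 classes and at 0.39 in the longest. Footprints per poly(A) were lower in each class than in the one before, with medians of 0.77 in the shortest and −1.30 in the longest. Over the 6588 transcripts the quantities had SDs of 1.20 and 1.10 and a rank correlation of 0.10 with each other, although they share their poly(A) denominator. The 1686 mRNAs that were 2-fold higher had a median CLIP per poly(A) of 0.65 and a median of footprints per poly(A) of −1.27. For the 1428 that were 2-fold lower the medians were −1.35 and 0.57, and for the remaining 3474 they were −0.32 and −0.29. The ratio that defined these groups is the difference of the 2 quantities, so medians that lie apart in both follow from how the groups were formed and are given as a description. Mki67 had a CLIP per poly(A) of 2.28 and footprints per poly(A) of −4.06. Tet1 stood at 3.38 and −1.85, while Eif5b stood at 0.79 and −3.87.

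Below, the highest and lowest members named for a list are those with at least 200 siLuc footprints, unless fewer are given. The counts of list members called either way are read beside the shares of all transcripts called 2-fold higher (24.5%) and 2-fold lower (24.3%). For counts without transcripts tallied higher, the shares to read beside are 25.6% and 21.7%. At any size 33.5% of all transcripts were higher and 32.9% lower.

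Genes of the ER folding machinery were rich in both LIN28A and footprints. Of 45 listed, 38 were tested, 1 of them tallied higher, and 11 were 2-fold higher and 3 2-fold lower, with a median log2 ratio of 0.39 against −0.06 over all transcripts. Without the one tallied higher, Ppib, the counts were 10 and 3. Their median CLIP per poly(A) was 1.59 and their median of footprints per poly(A) 1.19, against −0.26 and −0.29 over all transcripts. Tmx1, a membrane-bound thioredoxin of the ER, was the highest, with 1470, 1422 and 1373 coding CLIP counts against 337 footprints (2.51 ± 0.08). Its tally ratio of 0.37 put it among the transcripts tallied over 2-fold lower. Sdf2l1, an ER chaperone component, was the lowest, with 187, 142 and 189 against 722 (−1.64 ± 0.23). The protein disulfide isomerase gene Pdia6, nearest the median of the list, had 9446, 8374 and 8703 against 9347 (0.35 ± 0.11). Among the most translated members, named after their values were seen, the lectin chaperone gene Canx had 28991, 30495 and 30815 against 25797 (0.66 ± 0.02) and Hsp90b1, the ER form of HSP90, 29133, 32667 and 33554 against 40863 (0.07 ± 0.08). Hspa5, the ER form of HSP70 (BiP), had 8444, 8186 and 8313 against 25326 (−1.17 ± 0.04). These 3 libraries thus placed Canx above and Hspa5 below its footprint share, by more than the spread between antibodies.

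Subunits of the oligosaccharyltransferase, which transfers glycans to nascent chains at the translocon, ran from high to low. Of 11 tested, none tallied higher, 1 was 2-fold higher and 4 2-fold lower, with a median log2 ratio of −0.54. The large catalytic subunit Stt3b was highest, with 3196, 3164 and 3200 coding CLIP counts against 2121 footprints (1.02 ± 0.03), and its paralog Stt3a stood at 0.58 ± 0.10. The core subunits Rpn1, Ddost and Rpn2 stood at −0.35 ± 0.01, −0.56 ± 0.05 and −1.04 ± 0.06. The small subunit Dad1 stood at −2.50 ± 0.28, and Ost4, with a coding sequence of 114 nt, at −4.06 ± 0.24, with 29, 21 and 25 against 570. After subtraction of the length class the list median was −0.01. The ER translocon and its partners had 2 of 15 2-fold higher and 4 2-fold lower, with a median of −0.59 that turned to 0.42 after subtraction of the length class without the 2 tallied higher. Without those 2 the counts were 2 and 3 of 13. Sec63, a J-domain protein of the translocon, had 2149, 2161 and 2046 against 331 (3.11 ± 0.07). Sec61b, a small translocon subunit tallied higher, had 74, 41 and 69 against 1524 (−4.23 ± 0.46), and Srprb, of the signal recognition particle receptor, stood at −0.59 ± 0.31. The cytosolic targeting factors that bring chains to the ER had 0 of 11 2-fold higher and 5 2-fold lower, with a median of −0.97, or 0 and 5 of 10, with a median of −1.14, without Srpr, tallied higher (0.07 ± 0.08). Srp9, of the signal recognition particle, was lowest, with 15, 22 and 36 against 680 (−4.43 ± 0.59), and Srp19 highest (0.35 ± 0.39). No member was higher at an unadjusted edgeR p under 0.05 either, or with DESeq2.

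Enzymes that build and trim glycans further along the route stood higher. Of 30 Golgi glycosyltransferases tested, none tallied higher, 16 were 2-fold higher and 1 2-fold lower. Their median log2 ratio was 1.08, and 25 of 30 lay above the median of their length class. Their CLIP per poly(A) had a median of 1.13 and their footprints per poly(A) a median of −0.04. Galnt1, which starts O-linked chains, had 912, 673 and 866 coding CLIP counts against 215 footprints (2.35 ± 0.24), and Hs2st1, a heparan sulfate sulfotransferase, 436, 401 and 371 against 258 (1.07 ± 0.14). The lowest of the list was Pofut1, the O-fucosyltransferase of Notch, which resides in the ER rather than the Golgi. It had 74, 22 and 76 against 241 (−1.82 ± 1.01), and the antibodies differed widely there. Of the 16 that were 2-fold higher, 8 had fewer than 200 footprints. Of 57 genes listed, 30 were tested.

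Enzymes of glycan precursors and GPI anchors had 6 of 25 2-fold higher and 3 2-fold lower, with a median of 0.26. Pigg, which modifies the GPI anchor, stood at 1.58 ± 0.05, Pigx, of the first mannose transfer, at 0.29 ± 0.16 and Mpdu1, needed to use dolichol-linked sugars, at −2.62 ± 0.36.

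Receptors and adhesion proteins of the cell surface lay on both sides of the median of all transcripts. Of 66 tested, none tallied higher, 16 were 2-fold higher and 12 2-fold lower, with a median log2 ratio of 0.25. After subtraction of the length class their median turned to −0.52, and 15 of 66 lay above their class. CLIP per poly(A) and footprints per poly(A) were both high, with medians of 1.37 and 1.39. Pvrl3, a nectin, was highest, with 2606, 2983 and 2784 coding CLIP counts against 359 footprints (3.39 ± 0.09). Fzd7, a Wnt receptor, was lowest, with 333, 181 and 259 against 3496 (−3.37 ± 0.45). Plxna1, a semaphorin receptor, lay near the median at 0.26 ± 0.03. Among other members, named after their values were seen, the BMP receptor Bmpr1a (2.31 ± 0.10) and the Wnt co-receptor Lrp6 (3.05 ± 0.08) were 2-fold higher, while Notch1 (−1.85 ± 0.23) and the tetraspanins Cd9 (−2.29 ± 0.06) and Cd81 (−1.93 ± 0.14) were 2-fold lower.

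Extracellular matrix and secreted proteins had the lowest median ratio of the groups made at the ER that are named here. Of 35 tested, none tallied higher, 0 were 2-fold higher and 19 2-fold lower, with a median log2 ratio of −1.12. At any size 5 were higher, against 33.5% of all transcripts. Only 2 of 35 lay above the median of their length class. Their CLIP per poly(A) had a median of 0.79, above that of all transcripts, while their footprints per poly(A) had a median of 1.78, the largest of the groups made at the ER that are named here. Sparc (NM_009242; mm9 chromosome 11, 55208003 to 55233582), a secreted glycoprotein that binds collagen, had 535, 656 and 532 coding CLIP counts against 7892 footprints (−3.35 ± 0.18; edgeR adjusted p = 3.9e-14). Clu, a secreted chaperone, had 208, 183 and 242 against 616 (−1.12 ± 0.19). Among the most translated members, Fn1, of fibronectin, stood at 0.39 ± 0.03 with 41658, 40768 and 41513 against 42524. Its fitted value turned to −0.0646 with CLIP counts over all exons and to −0.51 with siLin28a footprints, and its call was lost with totals over the transcripts not tallied higher (0.06; edgeR adjusted p = 0.206). The long laminin gene Lama5 stood at −2.69 ± 0.07 with 1622, 1504 and 1554 against 13650. Both genes were named after their values were seen. For this list edgeR at an unadjusted p under 0.05 and DESeq2 also gave 0 that were 2-fold higher and 5 higher at any size.

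Of 29 enzymes of the lysosomal lumen, 2 were 2-fold higher and 11 2-fold lower (median −0.81), between Gusb at 0.72 ± 0.16 and the activator protein gene Gm2a at −2.24 ± 0.50 among those with at least 200 footprints. Of 20 lysosomal membrane proteins, 2 were 2-fold higher and 4 2-fold lower (median −0.62), or 2 and 3 of 19 without the one tallied higher, from the chloride and proton exchanger gene Clcn7 at 1.36 ± 0.05 to the tetraspanin gene Cd63, tallied higher, at −3.24 ± 0.10.

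The vacuolar ATPase joins a membrane part, made mostly at the ER, to a catalytic part made in the cytosol. Of 7 subunits of the membrane part tested, 1 was 2-fold higher and 4 2-fold lower, with a median log2 ratio of −1.06. That median is the value of Atp6v0d1 (−1.06 ± 0.22), a subunit of this part without a membrane segment. Of 7 cytosolic subunits, 0 were 2-fold higher and 2 2-fold lower, with a median of −0.22. None was tallied higher. Atp6v0a1, the large subunit of the proton channel, had 689, 729 and 771 coding CLIP counts against 459 footprints (1.10 ± 0.05). The subunit with the shortest coding sequence of the 7, Atp6v0e, had 79, 75 and 46 against 565 (−2.68 ± 0.45), and the accessory subunit Atp6ap1 150, 161 and 195 against 1111 (−2.29 ± 0.17). Atp6v0e, with a tally ratio of 0.29, was tallied over 2-fold lower. For the cytosolic list neither edgeR at an unadjusted p under 0.05 nor DESeq2 gave a higher member. On the cytosolic side, the regulatory subunit Atp6v1h stood at 0.28 ± 0.03, the catalytic subunit Atp6v1a at 0.19 ± 0.03 and the small stalk subunit Atp6v1f at −2.20 ± 0.23. Per mRNA, the median of footprints per poly(A) was 1.36 in the membrane part and 0.19 in the cytosolic part, and CLIP per poly(A) −0.01 and −0.54.

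Cholesterol synthesis also divides between ER membrane enzymes and cytosolic enzymes. Of 20 membrane genes tested, sterol regulators included, 7 were 2-fold higher and 4 2-fold lower, with a median log2 ratio of 0.42. Without Fdft1, the one tallied higher (−1.93 ± 0.21), the counts were 7 and 3. Mbtps1, the site-1 protease of sterol regulation, had 4173, 4064 and 4178 coding CLIP counts against 628 footprints (3.16 ± 0.03). Sqle, squalene epoxidase, had 2275, 2318 and 2597 against 721 (2.17 ± 0.08). Insig1, which retains the sterol sensor in the ER, stood at −2.11 ± 0.20 and Dhcr7, of the last reduction, at −2.01 ± 0.17. Of 6 cytosolic enzymes, 0 were 2-fold higher and 4 2-fold lower, with a median of −1.98. Acat2, the acetoacetyl-CoA thiolase, had 68, 74 and 61 against 1042 (−3.50 ± 0.16) and Mvd, mevalonate diphosphate decarboxylase, 31, 46 and 34 against 243 (−2.28 ± 0.29). Fdps, tallied higher, stood at −3.87 ± 0.35. Pmvk, phosphomevalonate kinase, was highest among those with at least 200 footprints at −0.97 ± 0.28. Ggps1, with 116, 73 and 96 against 60, stood above its footprint share at 1.07 ± 0.34 but was not called (edgeR adjusted p = 0.081). No member was higher at an unadjusted edgeR p under 0.05 or with DESeq2, and without Fdps 3 of 5 were 2-fold lower. CLIP per poly(A) without those tallied higher had a median of 1.22 in the membrane genes and −2.32 in the 5 cytosolic enzymes, and footprints per poly(A) 0.72 and −0.27.

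Tail-anchored proteins, SNAREs among them, hold a single membrane segment at their C-terminus and enter membranes after translation. Of 32 tested, 1 of them tallied higher, 3 were 2-fold higher and 9 2-fold lower, with a median log2 ratio of −0.61 that turned to 0.23 after subtraction of the length class. Without the one tallied higher, Sec61b, the counts were 3 and 8 of 31. Their CLIP per poly(A) (−0.30) and footprints per poly(A) (0.36) lay well below those of the ER folding genes. The SNARE genes Vti1b (512, 613 and 675 coding CLIP counts against 102 footprints, 2.98 ± 0.18) and Stx3 (267, 309 and 327 against 101, 2.00 ± 0.13) were the highest, both on few footprints. Vapa, a tether of ER contact sites, was highest among those with at least 200 footprints at 0.95 ± 0.06. Hmox1, heme oxygenase, stood at −3.39 ± 0.35, the nuclear envelope protein gene Emd at −2.59 ± 0.91 and the apoptosis gene Bax, named after its value was seen, at −1.90 ± 0.07.

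**Figure D4:**
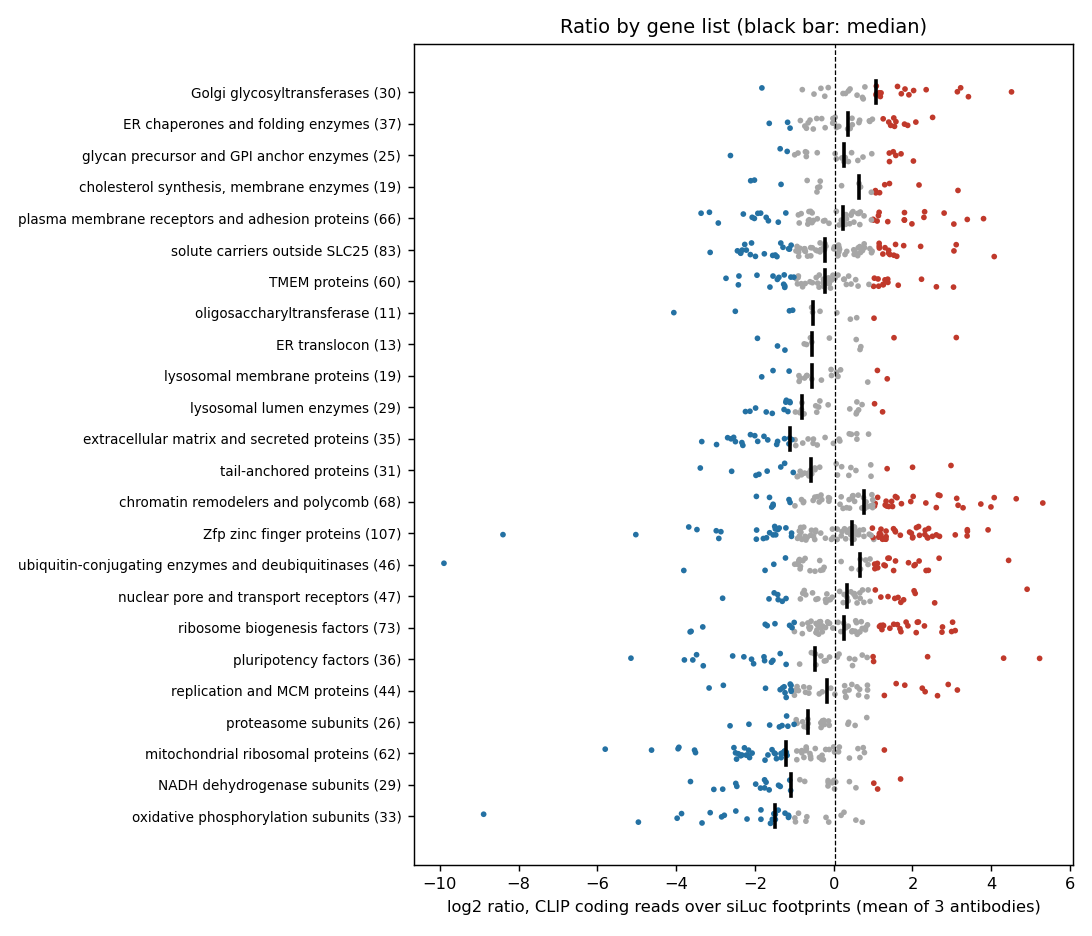
Log2 ratio of coding CLIP counts over siLuc footprints (x axis, mean of 3 antibodies) for the members of 24 gene lists, without transcripts tallied higher, with the number of members in brackets. Red points are 2-fold higher, blue points 2-fold lower, grey points neither; the bar is the list median and the dashed line the median of 6588 transcripts, 0.02. Golgi glycosyltransferases have the highest median, 1.08, and oxidative phosphorylation subunits the lowest, −1.48.

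**Figure D5:**
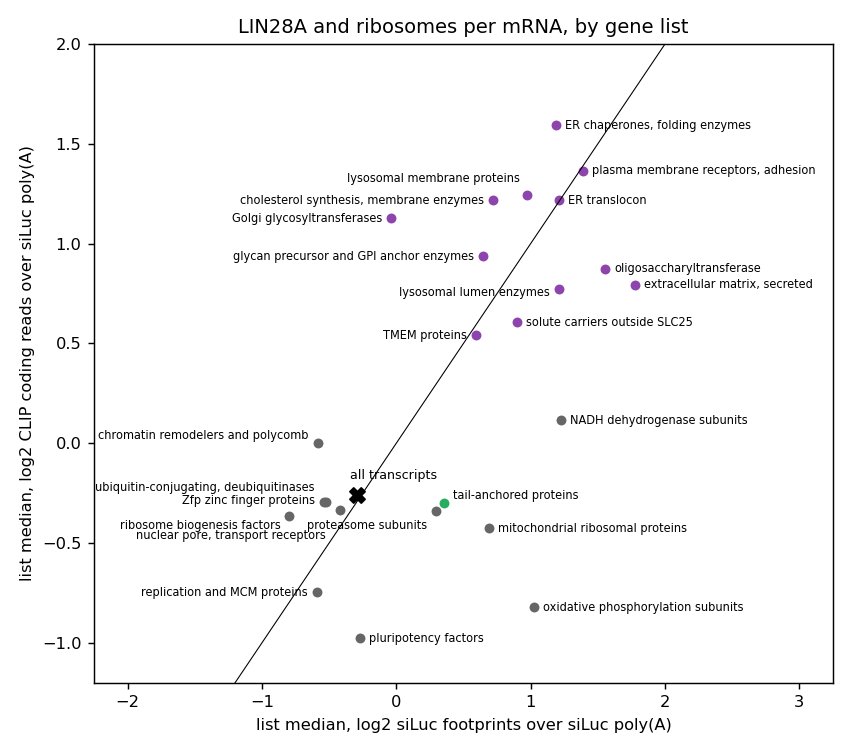
Median log2 CLIP per siLuc poly(A) (y axis) against median log2 footprints per siLuc poly(A) (x axis) for the same 24 lists, purple for the 12 lists made at the ER, green for tail-anchored proteins, grey for the others, with a cross for all transcripts. The line marks equal values. In CLIP per poly(A) these 12 lists lie between TMEM proteins at 0.54 and ER chaperones at 1.59, against −0.26 for all transcripts. The membrane part of the vacuolar ATPase, also made mostly at the ER, is not drawn and had −0.01.

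Transporters and TMEM membrane proteins also had CLIP and footprints per poly(A) above all transcripts, while their ratio lay near that of all transcripts. Of 83 solute carriers outside the SLC25 family, none tallied higher, 16 were 2-fold higher and 19 2-fold lower (median −0.22), with CLIP per poly(A) of 0.61 and footprints per poly(A) of 0.90. The zinc transporter genes marked both ends among those with at least 200 footprints. Slc30a5, which loads zinc into the secretory route, had 1308, 1272 and 1263 coding CLIP counts against 375 footprints (2.21 ± 0.05), and Slc39a1, a zinc importer, 48, 42 and 41 against 524 (−3.14 ± 0.15). Of 61 TMEM proteins, 13 were 2-fold higher and 15 2-fold lower (median −0.25, and 0.13 after subtraction of the length class without the one tallied higher, where the counts were 13 and 14 of 60). Tmem57 stood at 3.04 ± 0.06 and Tmem167 at −2.73 ± 0.66. Among 10 transmembrane 9 and p24 cargo receptors, Tm9sf3 had 2705, 2652 and 3005 against 700 (2.43 ± 0.08) and Tmed10 93, 162 and 135 against 1883 (−3.45 ± 0.39). Of 14 ATP-binding cassette transporters 5 were 2-fold higher and 2 2-fold lower, with the drug efflux pump Abcg2 highest at 1.71 ± 0.04.

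The traffic machinery on the cytosolic side of membranes was mixed. Vesicle coats and adaptors had 7 of 44 2-fold higher and 12 2-fold lower, or 7 and 9 of 41 without those tallied higher, from the ARF exchange factor Arfgef1 (2460, 2130 and 2389 coding CLIP counts against 324 footprints, 3.28 ± 0.12) to the clathrin adaptor subunit Ap2m1, tallied higher (−5.24 ± 1.37). Cltc, the clathrin heavy chain, stood near the median of the list with 5861, 6493 and 6419 against 11270 (−0.41 ± 0.06). Of 25 RAB GTPases, 7 were 2-fold higher and 7 2-fold lower, or 7 and 5 of 23 without those tallied higher. Their median without those was −0.08, and it came to 0.63 after subtraction of the length class, with Rab10 the highest.

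The lists of nuclear-encoded mitochondrial proteins had median ratios below that of all transcripts, though several of these medians came near 0 after subtraction of the length class. Of 40 oxidative phosphorylation subunits outside complex I, 0 were 2-fold higher and 28 2-fold lower (median −1.53), and without the 7 tallied higher 0 and 22 of 33. By edgeR at an unadjusted p under 0.05 and by DESeq2, 0 were 2-fold higher and 2 higher at any size. The ATP synthase gene Atp5c1 was highest at 0.73 ± 0.03, with 3910, 4141 and 4074 coding CLIP counts against 3307 footprints. Of 33 NADH dehydrogenase subunits, 4 were 2-fold higher and 18 2-fold lower (median −1.12). Ndufa5 had 1911, 1630 and 1990 against 766 (1.70 ± 0.15) and Ndufa11 106, 142 and 72 against 1737 (−3.64 ± 0.51). Of 67 mitochondrial ribosomal proteins, 1 was 2-fold higher, Mrpl40 (1.29 ± 0.09), and 38 2-fold lower (median −1.25). Without those tallied higher the counts were 3 and 15 of 29 for NADH dehydrogenase and 1 and 33 of 62 for the mitochondrial ribosome. These mRNAs are short, and after subtraction of the length class, without those tallied higher, the medians were −0.70, −0.15 and −0.24. Of 30 genes of mitochondrial import, 2 were 2-fold higher and 16 2-fold lower, or 2 and 13 of 27 without those tallied higher, with the cristae organiser Immt highest at 1.30 ± 0.05. Of 21 citric acid cycle and pyruvate dehydrogenase genes, 0 were 2-fold higher and 10 2-fold lower, or 0 and 7 of 18 without those tallied higher. The median of these 18 was −0.81, and −0.88 after subtraction of the length class. By edgeR at an unadjusted p under 0.05 and by DESeq2, 3 of the 21 were higher at any size, and Sucla2, of succinyl-CoA synthetase, was highest at 0.86 ± 0.08. Of 21 SLC25 carriers of the inner membrane, 3 were 2-fold higher and 4 2-fold lower, or 3 and 3 of 20 without the one tallied higher, and their median of −0.42 came to −0.03 after subtraction of the length class without that one.

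Of the cytosolic machinery, 0 of 35 proteasome subunits were 2-fold higher and 14 2-fold lower, from Psmb2 at 0.84 ± 0.21 to Psma3, tallied higher, at −5.99 ± 0.42. Without those tallied higher 8 of 26 were 2-fold lower. By edgeR at an unadjusted p under 0.05 and by DESeq2, 0 were 2-fold higher and 4 higher at any size. Of 38 aminoacyl-tRNA synthetases, 6 were 2-fold higher and 9 2-fold lower, from the leucyl enzyme Lars (3515, 3642 and 4061 coding CLIP counts against 1383 footprints, 1.87 ± 0.08) to the mitochondrial seryl enzyme Sars2 (23, 14 and 31 against 286, −3.26 ± 0.55). Eif5b was the highest of the translation factors and Eif4a1, tallied higher, the lowest. Translation factors had 12 of 50 2-fold higher and 15 2-fold lower, and 12 and 7 of 39 without those tallied higher. Cytosolic chaperonin and HSP90 genes had 1 of 27 2-fold higher and 9 2-fold lower, or 1 and 5 of 23 without those tallied higher, with the chaperonin subunit Tcp1 highest at 1.00 ± 0.06. Glycolytic enzymes had 2 of 15 2-fold higher and 10 2-fold lower, or 2 and 4 of 9 without those tallied higher, with hexokinase Hk2 highest at 1.11 ± 0.02. Cytosolic ribosomal proteins had 49 of 56 2-fold lower, but 47 of the 56 were tallied higher, and of the other 9 there were 4. None was 2-fold higher by edgeR at an unadjusted p under 0.05 or by DESeq2. The highest of them, Rps27l, stood at 0.31 ± 0.12.

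Chromatin and zinc finger genes had medians above that of all transcripts. Of 71 chromatin remodelers and polycomb genes, 26 were 2-fold higher and 10 2-fold lower (median 0.75). Without the 3 tallied higher the counts were 26 and 7 of 68, and the median came to 0.17 after subtraction of the length class. Their CLIP per poly(A) had a median of 0.00217, above that of all transcripts, and their footprints per poly(A) a median of −0.58, below it. Of 108 Zfp zinc finger genes, 37 were 2-fold higher and 21 2-fold lower (median 0.45), or 37 and 21 of 107 without the one tallied higher. Of these 37, 28 had fewer than 200 footprints, against 781 of the 1695 that were 2-fold higher over all transcripts. The list ran from Zfp292 (2966, 2871 and 3009 coding CLIP counts against 379 footprints, 3.39 ± 0.04) to Zfp706 (7, 0 and 0 against 562, −8.40 ± 2.28). DEAD and DEAH box helicases had 15 of 46 2-fold higher and 5 2-fold lower (median 0.48), or 15 and 4 of 44 without those tallied higher. Ribosome biogenesis factors had 21 of 79 2-fold higher and 11 2-fold lower, or 21 and 9 of 73 without those tallied higher, with the GTPase gene Bms1 at 3.09 ± 0.09 and Fbl, the fibrillarin methyltransferase tallied higher, at −3.82 ± 0.64. Replication and MCM genes had 8 of 47 2-fold higher and 15 2-fold lower, or 8 and 12 of 44 without those tallied higher, from topoisomerase Top1 (3.14 ± 0.12) to Pcna, tallied higher (−3.72 ± 0.09).

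Among other nuclear groups, ubiquitin-conjugating enzymes and deubiquitinases, some of them cytosolic, had 18 of 52 2-fold higher and 9 2-fold lower, or 18 and 5 of 46 without those tallied higher, with Usp34 highest (4.44 ± 0.01) and Ube2n, tallied higher, lowest. Nuclear pore and transport receptor genes had 11 of 50 2-fold higher and 9 2-fold lower, or 11 and 7 of 47, with Ranbp2 highest. Splicing factors had 9 of 68 2-fold higher and 29 2-fold lower, but 22 of the 68 were tallied higher, and without them the counts were 9 and 12 of 46. Srrm1, a splicing coactivator, was highest, with 2408, 2441 and 2402 coding CLIP counts against 590 footprints (2.47 ± 0.03). RNA polymerase subunits had 6 of 24 2-fold higher and 9 2-fold lower, or 6 and 8 of 23 without the one tallied higher, with Polr1a, the largest subunit of polymerase I, at 2.30 ± 0.12. Of 9 histone genes, 1 was 2-fold higher and 6 2-fold lower, or 1 and 3 of 6 without those tallied higher, and the macroH2A gene H2afy was highest at 2.24 ± 0.07. Cytoskeleton and motor genes had 18 of 53 2-fold higher and 15 2-fold lower, or 18 and 12 of 49 without those tallied higher, with the dynein heavy chain gene Dync1h1 highest (15489, 14260 and 15455 against 1300, 3.97 ± 0.07) and Myl6, a myosin light chain tallied higher, lowest (−3.62 ± 0.03).

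Genes of pluripotency more often carried less LIN28A than footprints than more, with 24 of 40 lower and 8 higher at any size, or 20 and 8 of 36 without the 4 tallied higher. Over all transcripts 32.9% were lower and 33.5% higher at any size, and without those tallied higher 30.2% and 35.0%. Of 40 pluripotency genes tested, 5 were 2-fold higher and 19 2-fold lower (median −0.72). Without those 4 the counts were 5 and 15 of 36, and 9 of 36 lay above the median of their length class. Their CLIP per poly(A) had a median of −0.98 against −0.26 over all transcripts, and their footprints per poly(A) a median of −0.27 against −0.29. The core factors below were named after their values were seen. Pou5f1 (Oct4) had 2697, 2868 and 2618 coding CLIP counts against 8523 footprints (−1.21 ± 0.08), Nanog 325, 294 and 393 against 5070 (−3.48 ± 0.20) and Sox2 802, 834 and 735 against 3114 (−1.54 ± 0.11). Klf4 stood at −1.75 ± 0.30, Esrrb at −1.58 ± 0.07 and Stat3, nearest the median of the list, at −0.86 ± 0.19. These 6 factors lay below their footprint share with all 3 antibodies. With CLIP counts over all exons in place of coding counts, the fitted log2 ratio of Sox2 turned to 1.41 and that of Klf4 to −0.03 (edgeR adjusted p = 0.895). The 5 genes at the other end were chromatin and RNA regulators, named after their values were seen: Tet1, Jarid2 of polycomb complex 2 (8356, 8979 and 8894 against 594, 4.31 ± 0.04), the maintenance methyltransferase Dnmt1 (2.38 ± 0.04), Rif1 (1.01 ± 0.02) and L1td1 (1.00 ± 0.06).

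CLIP reads outside the coding sequence were not used in the ratio. Of coding and 3′ UTR CLIP counts together, a median of 18.6% lay in 3′ UTRs for mRNAs 2-fold higher, 43.2% for those 2-fold lower and 28.6% for the rest, without those tallied higher. Since coding counts enter this share, the 3′ UTR counts were also taken per base of untranslated sequence and over untreated poly(A) per base. On that log2 scale, whose zero is arbitrary, the medians were 0.79, −0.12 and 0.22 for transcripts with at least 200 untranslated bases. The quartiles overlapped widely, −0.23 to 1.69 in the 2-fold higher group and −1.32 to 1.00 in the 2-fold lower group. With CLIP counts over all exons in place of coding counts, the fitted log2 ratio also turned positive for Atp6ap1 (1.18), Tmem167 (0.99), Pofut1 (0.69), Slc39a1 (0.57), Fzd7 (0.30) and Atp6v0e (0.13).

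The same transcripts can be followed after Lin28a siRNA, with 1 library per condition and so no test. The siLuc footprint library enters both the ratio above and the footprint change, so the values are only set side by side. Log2 changes are siLin28a over siLuc, as shares of library totals, without transcripts tallied higher. Among mRNAs 2-fold higher the median mRNA change was −0.12, the footprint change −0.28 and the change of footprints per mRNA −0.14. Among those 2-fold lower the medians were 0.14, −0.15 and −0.29, and among the rest −0.03, −0.30 and −0.28. Over all 6588 transcripts the median footprint change was −0.25 and the median change of footprints per mRNA −0.24. Among the lists, footprint changes had medians of 0.83 in Golgi glycosyltransferases, 0.59 in ER chaperones and 0.96 in extracellular matrix and secreted proteins, lists whose CLIP over footprint medians were 1.08, 0.35 and −1.12 over the same transcripts. In tail-anchored proteins and pluripotency genes the medians of the footprint change were −0.23 and −0.27, near the −0.25 over all transcripts.

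Lin28a itself (NM_145833; mm9 chromosome 4, 133559245 to 133574731) carried less LIN28A in its coding sequence than footprints. It had 211, 198 and 171 coding CLIP counts against 898 siLuc footprints, a log2 ratio of −1.78 ± 0.18 (edgeR adjusted p = 1.7e-06). With CLIP counts over all exons the fitted value turned to 1.69, and against siLin28a footprints, which count the silenced mRNA, it was 0.19. Its tally ratio was 0.15, among the transcripts tallied over 2-fold lower. Of 26 let-7 target genes, 5 were 2-fold higher and 7 2-fold lower (median −0.06), or 5 and 6 of 25 without the one tallied higher, from the TGF-beta receptor gene Tgfbr1 (827, 1035 and 1008 against 263, 2.29 ± 0.16) to Hmga1, tallied higher (3, 0 and 27 against 2454, −8.96 ± 2.88). Of 16 LIN28A partners and let-7 processing genes, 7 were 2-fold higher and 3 2-fold lower (median 0.45), or 7 and 1 of 14 without those tallied higher. The helicase gene Dhx9 stood at 2.09 ± 0.04, the exportin gene Xpo5 at 0.27 ± 0.04 and Tarbp2, a Dicer partner tallied higher, at −3.80 ± 1.11.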

How the data were processed

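CLIP, footprint and poly(A) values are read counts per transcript in tables the authors deposited, without normalization. GSNAP, bedtools and the mouse genome build mm9 are named, per the submitters' processing notes, without roles or versions. CLIP counts are split by coding sequence, UTR and exon, per the file headers. The tables hold 24 more sample columns, which no step read. Of 7181 shared accessions, 7117 were in the RefSeq gene table.

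Coding CLIP counts of 3 antibodies were compared with siLuc footprints with edgeR 4.0.16 (R 4.3.3), quasi-likelihood, with library totals over shared transcripts as library sizes and no normalization factor, on transcripts with at least 50 footprints. P-values were Benjamini-Hochberg adjusted, with a threshold of 0.05. DESeq2 1.42.0 was an alternative, and the fit was tested on simulated data. Log2 ratios used a pseudocount of 0.5. Named genes are the 12 highest and 12 lowest with at least 200 footprints, adjusted p under 0.05 and 1 sign with all antibodies. Families with near-identical copies, such as ribosomal proteins and tubulins, were left out by symbol only, and shared reads were not measured. From each list the highest, lowest and median-nearest member with at least 200 footprints were taken, with subunits of complexes divided between ER and cytosol, and Lin28a. Other names are said to be chosen after their values were seen. Length classes and the tally split were added after seeing the data. The members and gene lists were chosen with earlier results of these data known. Lin28b and hydrophobic segments of proteins were not analysed here. Some genes that the naming rule picks are not reported here.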

Additional observations from a re-analysis of the deposited data

How the results depend on the processing

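The counts of transcripts higher and lower were recomputed with TMM factors, DESeq2, no footprint minimum, CLIP counts over all exons, siLin28a footprints and 1 transcript per symbol. They were also recomputed without transcripts whose tallies differ, and without those left out by symbol for near-identical copies. Those counts stayed within 1.5 times the values reported under each of them. With at least 200 footprints, 1466 of 4922 transcripts were higher, 914 of them by 2-fold. Of the 1695 reported above as 2-fold higher, 781 had fewer than 200 footprints and so could not enter this set. Leaving out 1 antibody at a time gave 2243 to 2284 higher and 2236 to 2247 lower, or 1677 to 1687 and 1674 to 1698 by 2-fold. Chosen after seeing the data, leaving out transcripts tallied higher gave 1688 and 1434 by 2-fold, and 1251 and 1974 with totals over the rest, where the share higher among 2-fold calls was 38.8% against 50.2%. That share was 57.1% with all exons, 57.4% with siLin28a footprints and 37.6% with at least 200 footprints.

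Signs turned for some of the 152 named mRNAs, and with all exon CLIP counts and with siLin28a footprints the cause was not tested. With all exon CLIP counts the fitted log2 ratios were 1.18 for Atp6ap1, 0.13 for Atp6v0e, 0.33 for Csnk2a1, −0.0646 for Fn1, 0.30 for Fzd7, −0.38 for Hsp90b1, 1.69 for Lin28a, −0.001163 for Pdia6, 0.69 for Pofut1, 0.57 for Slc39a1, 1.41 for Sox2, −0.342 for Srpr, 0.99 for Tmem167 and 0.0272 for Ube2d2. With siLin28a footprints they were 0.62 for Cltc, −0.51 for Fn1, −0.0910 for Gusb, −0.51 for Hsp90b1, 0.19 for Lin28a, −0.0895 for Pdia6, −0.41 for Plxna1, −0.14 for Rps27l and −0.0944 for Stt3a. With totals over the rest, which shifted all log2 ratios by −0.34, they were −0.26 for Hsp90b1 and −0.0237 for Rps27l. Leaving out 35L33G brought Hsp90b1 and Srprb past the threshold, and Rps27l lost its call without 2J3 and without the polyclonal antibody. With DESeq2 the calls of Carhsp1, Zfp706 and Rps27l were lost, and with totals over the rest those of Fn1, Gusb and Pdia6. A pseudocount of 5 moved 13 of the 152 by more than their SD. No paired analysis was possible because the footprints are 1 library and the antibodies carry no number shared with it. With 1 footprint library, its own error is not measured, and values under 30 CLIP counts are imprecise.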
